A study of Mus musculus with 2 samples.

Results

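Pro-B cells and cycling pre-B cells are the dividing and rearranging early stages of the B lineage. They were picked in these data as single cells with RNA of the B-cell receptor signalling chains *Cd79a* and *Cd79b* (at least 3 unique molecular identifiers, UMIs, over both) that carried surrogate light chain RNA (at least 2 UMIs of *Vpreb1* and *Igll1* together), cell division RNA (at least 2 UMIs of *Mki67* and *Top2a* together), or both. Cells with more than 1 UMI of the mature B-cell genes *Ighd* and *Fcer2a*, any UMI of the T-cell gene *Cd3e*, or 2 or more UMIs of *Siglech*, a gene of plasmacytoid dendritic cells, were left out. Members were thus chosen by their own UMIs of these genes. The rule selected 293 of 4502 analysed cells, 39 of 1207 in the library from intact limbs and 254 of 3295 in the library from fracture calluses.

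All cells came from mice labelled male, of the genotype Clec3b.creERT2; Ai14.R26.tdTomato, in which tamoxifen lets Cre, driven from the *Clec3b* gene, switch on the red reporter tdTomato in *Clec3b*-expressing connective tissue cells. Tamoxifen was given 2 weeks before a stabilized fracture of the right femur, and tissue was taken 3 weeks after surgery. The intact group (treatment None) was femoral diaphysis with surrounding muscle and the callus group (treatment Fracture) was callus tissue, from the intact and the injured limbs of the same mice. Specimens of 3 littermates were pooled per group, digested with collagenase, sorted for tdTomato and made into 1 10× Chromium 3′ library each, so there are no replicates, mice cannot be told apart, and no test between the groups is possible. The general methods for fracture surgery used mice at 6 weeks of age, and the labels give no age. B-lineage cells are not the cells that the reporter was built to mark, and the reporter's RNA was not analysed here. The authors set blood cells aside in their own analysis, because these lacked meaningful tdTomato expression, and regarded them as artifacts of the sort. A larger or smaller share of a cell type can therefore also reflect how much marrow or blood entered a specimen and passed the sort, which was not tested.

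B cells are made in the marrow from progenitors that first join heavy chain gene segments with the recombinase RAG1 and RAG2, while the polymerase encoded by *Dntt* adds bases at the joints. A successful heavy chain is brought to the surface with the surrogate light chain, made of the VpreB and λ5 proteins encoded by *Vpreb1*, *Vpreb2* and *Igll1*, as the pre-B cell receptor. Signals of this receptor and of the interleukin 7 receptor drive rounds of division, after which the surrogate light chain is switched off and the small resting pre-B cell rearranges its κ or λ light chain genes. *Mki67*, on chr7:135689784-135716361 (GRCm38, minus strand), encodes the division antigen Ki-67, and *Top2a*, on chr11:98992943-99024189 (minus strand), a topoisomerase that untangles chromosomes. *Igll1* (chr16:16860671-16863985) and *Vpreb1* (chr16:16868403-16870843) are neighbours on the minus strand, while *Vpreb2* (chr16:17980428-17981273) lies on the plus strand.

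Proliferating cells turn on DNA replication genes through E2F factors, which bind short elements close to the start of transcription. Promoter windows of RefSeq (GRCm38.p6, 250 bases before to 50 after the start) were searched on both strands for TTTCCCGC and TTTGGCGC, which do not overlap each other in the windows printed here. A match was found in 8 of the 21 listed DNA replication genes with a window (38.1%), against 486 of 27025 genes with a window (1.80%). Of the other lists of dividing cells, 0 of 22 mitosis and 0 of 12 nucleotide synthesis genes held either motif, against 2 of 12 genes of cyclins, kinases and inhibitors and 3 of 11 of the Myc and growth list. None of the 16 listed genes of the pro-B stage with a window held one. The palindromic motif of EBF factors, also searched, was in 0 of the same 16 and in 287 of 27025 windows (1.06%). It was in 1 of 17 B-lineage transcription factor genes, 1 of 11 interleukin 7 receptor signalling genes and 1 of 21 DNA replication genes. The pre-B and B cell receptor signalling list held it in 1 of 12, and the late pre-B and immature B list in 1 of 11. The 5 windows shown belong to replication genes described below and are read 5′ to 3′ on the strand of the gene, with the matching letters, or their reverse complement, in capitals.
Mcm5: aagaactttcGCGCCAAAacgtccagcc
Mcm6: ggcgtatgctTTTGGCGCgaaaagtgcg
Mcm7: atttcgaaccGCGGGAAAcagggtgtcc
Cdc6: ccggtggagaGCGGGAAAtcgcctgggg
Hells: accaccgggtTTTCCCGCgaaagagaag
They lie at chr8:75109350-75109377 on the plus strand (*Mcm5*), chr1:128359798-128359825 on the minus strand (*Mcm6*), chr5:138172031-138172058 on the minus strand (*Mcm7*), chr11:98908003-98908030 on the plus strand (*Cdc6*) and chr19:38930918-38930945 on the plus strand (*Hells*). Their capitals begin 149, 110, 165, 138 and 62 bases before the RefSeq start, in that order. A match is a description of letters and not a measured binding site.

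The analysed cells held 7518795 UMIs in the intact and 34287541 UMIs in the callus library, with medians of 4939 and 6843 UMIs per cell. Members of the rule had medians of 5847 (intact) and 10467 UMIs (callus). By the arm of the rule they met, 15 intact and 79 callus members had surrogate light chain RNA only, 9 and 111 had both, and 15 and 64 had division RNA only. These arms are called non-cycling surrogate light chain cells, cycling surrogate light chain cells, and cycling cells without surrogate light chain. The names follow the UMIs of *Mki67* and *Top2a* only, and some non-cycling callus cells held much RNA of DNA replication genes, as given below. The values that chose the cells are given as description. Most members were far from the threshold for surrogate light chain, since 20 of 24 intact and 167 of 190 callus cells had at least 10 UMIs of *Vpreb1* and *Igll1*. Only 1 cell in each library was just inside at 2 UMIs, while 7 intact and 23 callus B-lineage cells short of the mature stage were just outside this threshold at 1 UMI. Some of those at 1 UMI were still members, through their division RNA.

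**Figure D1:**
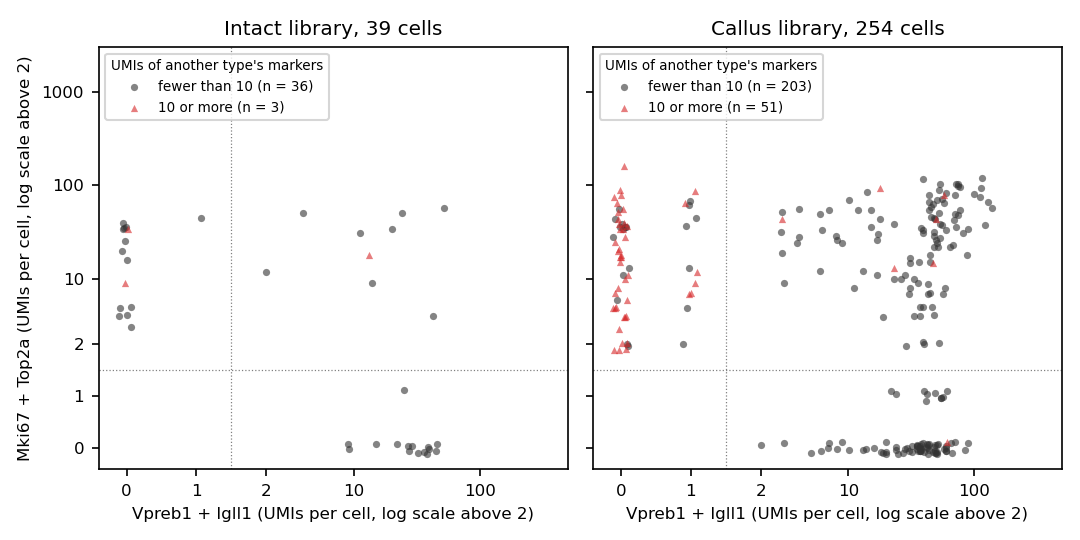
UMIs per member cell of the 2 pairs of genes that chose the cells, *Vpreb1* plus *Igll1* on the horizontal and *Mki67* plus *Top2a* on the vertical axis (axes linear near 0 and logarithmic above), intact at left and callus at right. Points are cells, dark circles with fewer than 10 UMIs of another cell type's markers and red triangles with 10 or more. The triangles sit mainly along the left edge of the callus panel, where surrogate light chain is absent.

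The threshold on *Cd79a* and *Cd79b* was a different matter, and part of the callus cells went against the name. Of callus cells meeting all other criteria, 40 had 2 UMIs of the pair and were out, and 23 had 3 UMIs and were in, against 0 and 1 intact cells. In the callus arm without surrogate light chain, 44 of 64 cells (68.8%, exact 95% interval 55.9 to 79.8) had at least 10 UMIs of the defining markers of another cell type, and 32 of them had such counts of granulocyte-monocyte progenitor genes. The 29 of these with no *Cd79a* UMI had 3 to 6 UMIs of *Cd79b* and medians of 157 UMIs of *Elane*, 190 of *Mpo* and 189 of *Prtn3*, the neutrophil granule enzymes elastase, myeloperoxidase and proteinase 3. Their median *Ebf1* count, the factor that commits cells to the B lineage, was 0. A further 7 cells were rich in RNA of secreted antibody, with 442 to 2383 UMIs of *Igha* and 296 to 1273 UMIs of *Jchain*. These cells went against the name of pre-B cells and are called below cells with another type's markers.

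The other arms mostly matched their label. Of callus surrogate light chain cells, 1 of 79 non-cycling and 6 of 111 cycling cells reached 10 UMIs of another type's markers, and of intact members 3 of 39 did so, 1 of them an erythroid-rich cell. The remaining 36 intact and 203 callus cells held 3.56 and 23.1 CPM (UMIs scaled to 1000000 per group) of the 5 progenitor markers summed, with *Elane* the most abundant in the callus (8.26 CPM) and *Mpo*, *Elane*, *Prtn3* and *Ctsg* at 0 UMIs in the intact cells. The 44 callus cells set aside stood at 22654 CPM. Cells were split by UMIs of such markers, so this contrast, and the one in neutrophil markers that follows, was in part set by the choice. The 9 neutrophil markers summed to 142 and 360 CPM in the remaining cells, led by *S100a8* (60.5 CPM, intact) and *S100a9* (157 CPM, callus, 83.6 CPM without 1 cell), and to 28293 CPM in the 44 cells. Haemoglobin genes, *S100a8* and *S100a9* were not among the markers used to set cells aside, and 3 of the 203 callus cells were rich in them. A non-cycling and a cycling surrogate light chain cell held 7697 and 1737 haemoglobin UMIs, against at most 25 in any other, and a non-cycling one 341 UMIs of *S100a8* and *S100a9*, against at most 9. The 8 T-cell markers were at 0 UMIs in the 36 intact cells and 3.72 CPM in the 203 callus cells, where the rule itself had required 0 UMIs of 1 of them, *Cd3e*. Because the 44 cells carried 1388143 of the 3959725 callus member UMIs, expression is given below for the 239 cells without markers of another type unless all members are named, a choice made after seeing the data.

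**Figure D2:**
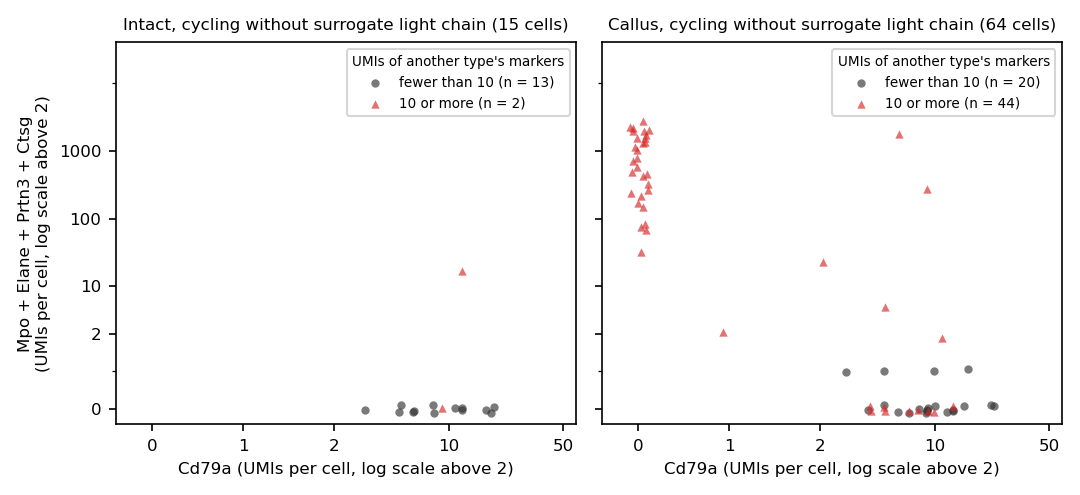
UMIs of *Cd79a* (horizontal) against UMIs of granulocyte-monocyte progenitor markers (vertical) in each cycling cell without surrogate light chain, intact at left and callus at right, axes linear near 0 and logarithmic above. The 29 callus cells at 0 UMIs of *Cd79a* all have at least 10 progenitor marker UMIs, as do 3 callus cells and 1 intact cell with *Cd79a*.

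The labels call the mice male, but *Xist*, the RNA of the inactive X chromosome of females, was found in 38 of 39 intact members (97.4%) and 250 of 254 callus members (98.4%). The 4 Y-linked genes counted had 0 UMIs in members of both libraries. The recorded sex and the RNA therefore disagree for these cells in both groups alike. Of all barcodes, 1 sequence occurred in both libraries, and it was not a member in either.

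Members made up a larger part of the callus library. They were 3.23% of analysed intact cells (exact 95% interval 2.31 to 4.39) and 7.71% of callus cells (6.82 to 8.67), and 13.98% (10.1 to 18.6) and 37.5% (33.9 to 41.3) of B-lineage cells. Without cells carrying markers of another type, they were 13.4% (9.55 to 18.0) of 269 intact and 34.4% (30.6 to 38.4) of 590 callus B-lineage cells. These intervals cover counting error only, not differences between mice or specimens.

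The arms did not shift alike. Among these B-lineage cells, non-cycling surrogate light chain cells were 5.58% (3.15 to 9.03) of the intact and 13.2% (10.6 to 16.2) of the callus library, and cycling ones 2.97% (1.29 to 5.78) and 17.8% (14.8 to 21.1). Cycling cells without surrogate light chain were 4.83% (2.60 to 8.12) and 3.39% (2.08 to 5.19), so their intervals overlapped. Small pre-B and immature B cells, which pass the B-lineage criteria but neither arm, differed the other way, at 66.5% (60.6 to 72.2) intact and 30.8% (27.1 to 34.7) callus. Mature B cells, with at least 2 UMIs of *Ighd* and *Fcer2a*, were 20.1% (15.5 to 25.4) and 34.7% (30.9 to 38.7). Of surrogate light chain cells, 8 of 23 intact (34.8%, 16.4 to 57.3) and 105 of 183 callus cells (57.4%, 49.9 to 64.6) were cycling, with overlapping intervals. Library depth moved in the same direction as these shares, and thinning every cell to 2000 UMIs left 31 intact and 161 callus cells meeting the rule. Read this way, 1 of 18 intact (5.56%, 0.141 to 27.3) and 53 of 130 callus surrogate light chain cells (40.8%, 32.2 to 49.7) were cycling, without overlap of the intervals, so the size of that difference depended on depth.

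**Figure D3:**
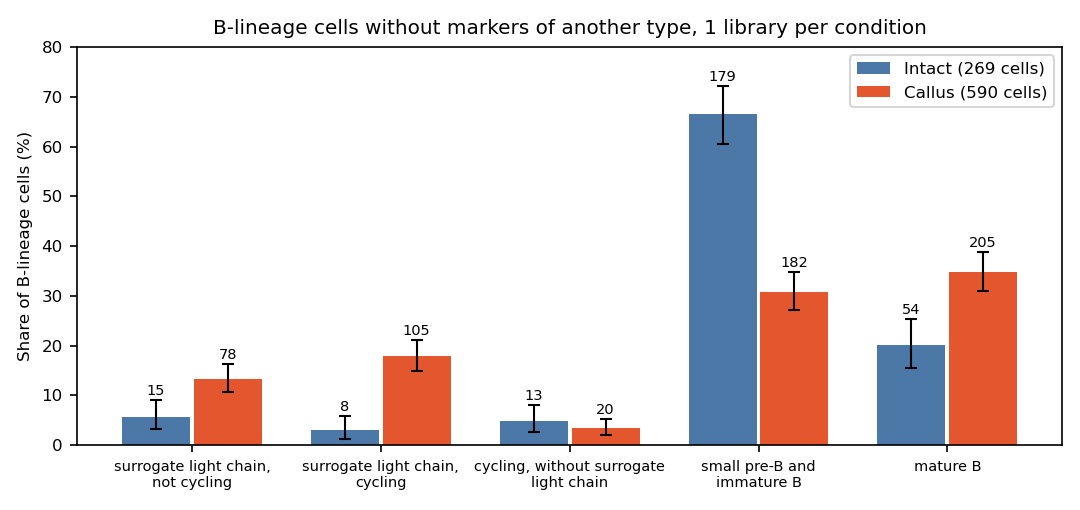
Share (percent) of B-lineage cells without another type's markers that fell in each arm of the rule and in the small and mature groups, intact beside callus, with exact 95% binomial intervals as error bars. The cycling surrogate light chain arm was 2.97% intact and 17.8% callus, and small cells were 66.5% and 30.8%.

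Surrogate light chain RNA was higher in non-cycling than in cycling surrogate light chain cells of both libraries. *Vpreb1*, which helped choose the cells, had a level of 4492 CPM (exact Poisson 95% interval 3960 to 5076) over 15 intact non-cycling surrogate light chain cells and 4839 CPM (4623 to 5062) over 78 of the callus. It was lower in cycling surrogate light chain cells, where the 8 intact cells had 705 CPM (572 to 861) and the 105 callus cells 1358 CPM (1306 to 1412). *Igll1* went from 3164 to 524 CPM intact and from 2652 to 1127 CPM callus between the same arms. The required 2 UMIs of these genes are a larger share of the shallower non-cycling cells. Median depths were 3772 against 16887.5 UMIs intact and 4353.5 against 14747 UMIs callus, so no conclusion is drawn from the step in these 2 genes. *Vpreb2*, which the rule did not use, showed the same step, from 769 CPM (559 to 1032) to 65.4 CPM (29.9 to 124) intact and from 534 CPM (464 to 612) to 151 CPM (134 to 169) callus. *Vpreb2* and *Vpreb1* are near-identical copies, so reads may be shared between them. Mature B cells had 132 CPM (intact) and 276 CPM (callus) of *Vpreb1*, and all 23 intact UMIs lay in 1 cell.

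*Vpreb3*, which encodes a chaperone-like partner of the receptor chains, outlasted the surrogate light chain. In intact cells it was at 6660 CPM in non-cycling and 1840 CPM in cycling surrogate light chain cells, 2316 CPM in cycling cells without it, 3345 CPM in small cells and 578 CPM in mature cells. The callus series was 4957, 1573, 2702, 2907 and 719 CPM. *Ighm*, the heavy chain of the receptor (chr12:113418558-113422730, minus strand), was highest in small cells, with 996, 1098, 2293, 4458 and 2496 CPM in the intact and 1856, 1233, 3017, 5396 and 2925 CPM in the callus groups. Its level in non-cycling surrogate light chain cells was thus 996 CPM (755 to 1291) intact and 1856 CPM (1723 to 1996) callus, with intervals of counting error only. Single cells overlapped, ranging from 0 to 4252 CPM intact and from 0 to 6369 CPM callus.

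*Rag1* and *Rag2* were higher in non-cycling than in cycling surrogate light chain cells, while the whole recombination and end joining list was mixed, with 3 of 5 (intact) and 7 of 12 (callus) counted genes at least 2-fold lower and 2 higher in cycling cells of each library. Over all genes 18.3% and 20.1% were lower and 25.8% and 14.4% higher. *Rag1*, on chr2:101638282-101649501 (minus strand), stood at 524 CPM (354 to 749) intact and 572 CPM (500 to 653) callus in non-cycling surrogate light chain cells. No *Rag1* UMI was found in the 8 intact cycling surrogate light chain cells, which allows up to 21.8 CPM (3 UMIs), and the callus level there was 50.4 CPM (40.8 to 61.6). It was higher again in small pre-B and immature B cells, at 302 CPM (255 to 354) and 326 CPM (282 to 376). At a fixed depth of 2000 UMIs, *Rag1* was seen in 7 of 14 intact and 45 of 73 callus non-cycling cells (50% and 61.6%), and in 0 of 8 and 9 of 104 cycling surrogate light chain cells (0 and 8.65%). Before thinning these were 66.7%, 80.8%, 0 and 43.8%, with 0.342% and 0.177% of neutrophils, which should lack the gene.

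*Dntt*, on chr19:41029275-41059525 (plus strand), marked the surrogate light chain arms alone among members. It was at 1171 CPM (908 to 1487) intact and 1363 CPM (1250 to 1484) callus in non-cycling surrogate light chain cells, and at 0 UMIs in the 13 intact and 20 callus cycling cells without surrogate light chain, which allows up to 34.7 and 20.5 CPM. Cycling surrogate light chain cells differed between libraries, with 507 CPM (475 to 540) in the callus and 79.99 CPM (39.9 to 143) in the intact library. That intact value rested on 1 cell with 10 of the 11 UMIs, and was 8.40 CPM without it. *Rag2* (105 against 7.27 CPM intact, 84.7 against 22.3 CPM callus) and the end-joining ligase gene *Lig4* (157 against 21.8 CPM, 92.4 against 39.8 CPM) were likewise higher in non-cycling than in cycling surrogate light chain cells. The intact levels of both genes rest on few UMIs, since 3 UMIs are 52.4 CPM in the non-cycling and 21.8 CPM in the cycling arm.

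Cycling surrogate light chain cells of the callus library were not uniform in *Dntt*. The 65 with a *Dntt* UMI held 983 CPM of *Ighm*, 1742 CPM of *Vpreb1*, 77.3 CPM of *Rag1* and 26.7 CPM of *Igkc*, the κ light chain. The 40 without held 1604, 792, 10.5 and 379 CPM of the same genes. Median depth was 14713 and 16593 UMIs in these cells, so the cells without *Dntt* were not the shallower ones. The split was made on one of the genes described and is a description of how these RNAs fell together. Intact cycling surrogate light chain cells with *Dntt* were too few (2 of 8) to describe.

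**Figure D4:**
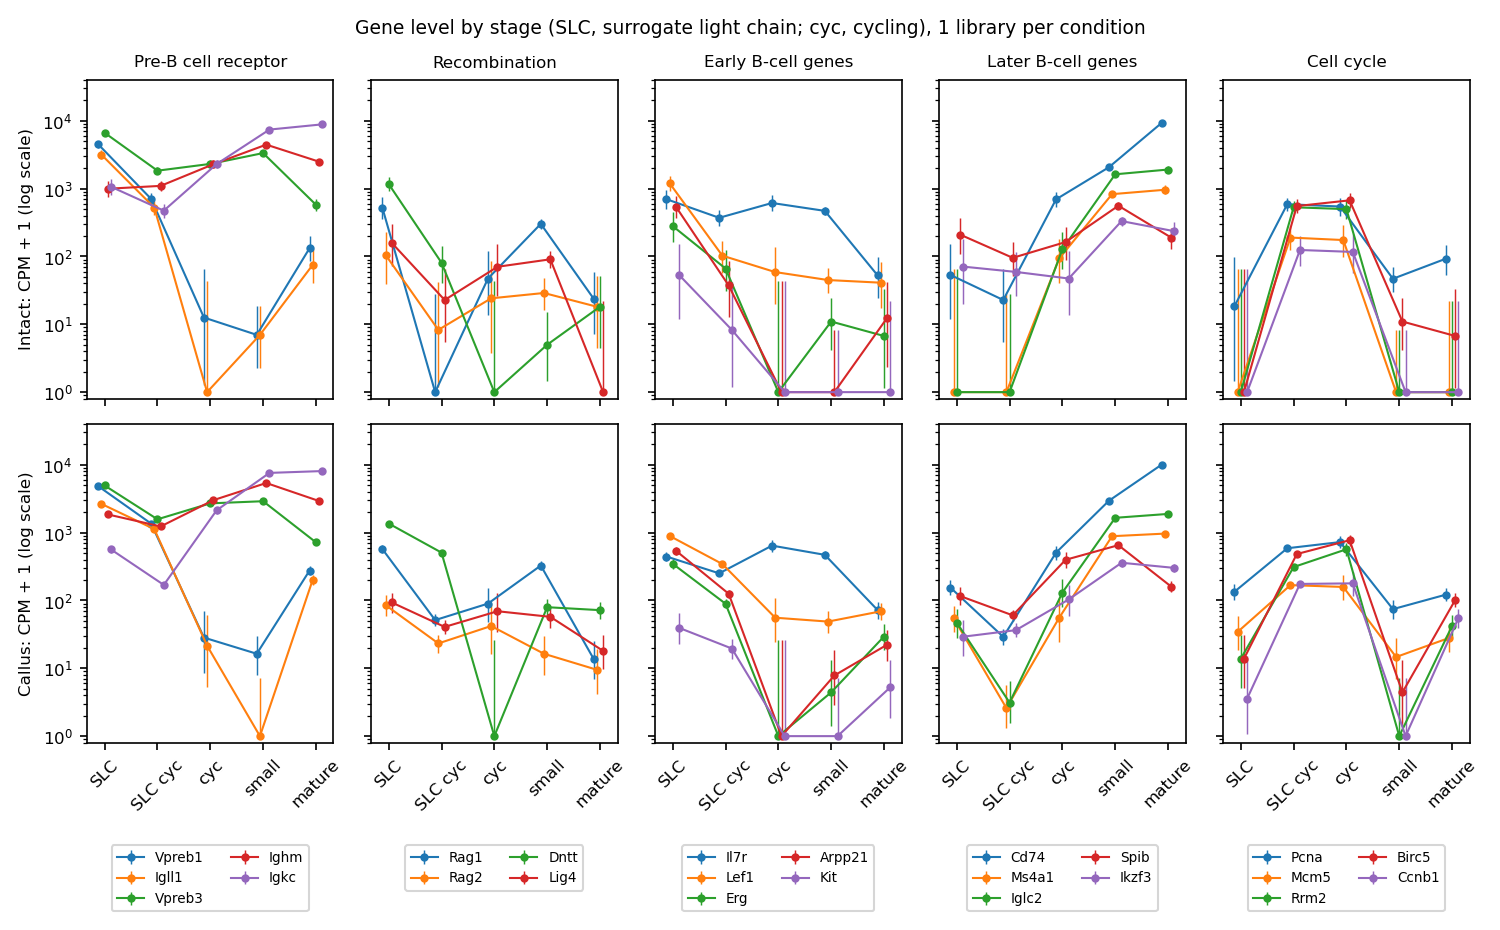
Level in CPM plus 1 (logarithmic axes) of 24 genes in 5 groups of B-lineage cells without another type's markers (SLC, surrogate light chain; SLC cyc, cycling with it; cyc, cycling without it; small; mature), intact in the upper and callus in the lower row. Bars are exact Poisson 95% intervals, and lines join 1 gene's values; *Vpreb1* and *Dntt* drop from left to centre while *Igkc*, *Cd74* and *Iglc2* climb to the right.

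The tally of the whole pro-B stage list, in which not every gene went the same way, is given further below. Among members, *Lef1*, *Erg* and *Arpp21* of that list were highest in the non-cycling surrogate light chain arm. *Lef1*, a WNT-responsive factor of early lymphocytes, was at 1206 CPM (938 to 1526) intact and 896 CPM (804 to 995) callus there. In cycling surrogate light chain cells it was at 102 CPM (55.7 to 171) and 344 CPM (318 to 371), and in cycling cells without it at 57.9 and 54.7 CPM. *Erg*, an early haematopoietic transcription factor gene, went from 280 to 65.4 CPM and then 0 UMIs in the intact, and from 347 to 88.6 CPM and then 0 UMIs in the callus library. *Arpp21*, an RNA-binding protein gene of early lymphocytes, followed the same course, from 542 CPM to 36.4 CPM and 0 UMIs (intact) and from 542 CPM to 125 CPM and 0 UMIs (callus). The stem cell factor receptor gene *Kit* was low throughout, at 52.4 CPM (10.8 to 153) and 38.5 CPM (21.6 to 63.5) in non-cycling surrogate light chain cells. *Cd34* and *Flt3*, of earlier progenitors, were at 0 UMIs in intact surrogate light chain cells and at no more than 18.0 CPM in those of the callus. *Mme* had 0 UMIs in every B-lineage group of both libraries.

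*Il7r*, the interleukin 7 receptor chain on which mouse B-cell precursors depend, did not follow these genes. It was at 699 CPM (500 to 952), 371 CPM (276 to 488) and 614 CPM (460 to 803) in the 3 intact arms, non-cycling, cycling with and cycling without surrogate light chain. The callus arms had 444 CPM (380 to 515), 250 CPM (228 to 274) and 643 CPM (520 to 787), and small cells had 469 (intact) and 470 CPM (callus). Mature cells were the low group, at 51.5 and 71.0 CPM. *Ebf1* was at 7394, 1513 and 3706 CPM in the intact and 5434, 2083 and 2647 CPM in the callus arms, and *Pax5*, the factor that holds B-cell identity, at 245, 189 and 185 CPM and at 293, 225 and 260 CPM. *Foxo1*, a factor needed for *Rag* expression, was at 192 CPM, 0 UMIs and 34.7 CPM (intact) and 200, 62.6 and 88.9 CPM (callus). *Spib* and *Ikzf3*, factors of later B cells, were higher in small cells (559 and 332 CPM intact, 653 and 359 CPM callus) than in any member arm, where they reached at most 397 CPM (*Spib*) and 103 CPM (*Ikzf3*), both in callus cycling cells without surrogate light chain.

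Lists of division genes stood higher in cycling than in non-cycling surrogate light chain cells, which the split itself set in part. Of genes with at least 20 UMIs over both groups, 413 of 1598 (25.8%) were at least 2-fold higher and 292 (18.3%) at least 2-fold lower in cycling cells of the intact library, and 1154 of 7993 (14.4%) and 1606 (20.1%) in those of the callus. Over all members, any cycling cell against the non-cycling arm, they were 592 of 2682 (22.1%) and 464 (17.3%) intact, and 1423 of 9434 (15.1%) and 1840 (19.5%) callus. The split uses *Mki67* and *Top2a*, so these counts are background and not findings. The values of division lists below are likewise only a description. Cycling cells held 137510 of 194720 intact and 1885939 of 2275508 callus UMIs of the surrogate light chain arms. Genes high in division could thus be counted through that arm alone. All 13 intact and 24 of 25 callus DNA replication genes counted were at least 2-fold higher, with median log2 ratios of 2.93 and 2.06 against 0.21 and −0.20 over all genes. All 14 intact and 25 callus mitosis genes were higher (medians 2.42 and 4.47), as were all 6 and 13 nucleotide synthesis genes (2.79 and 2.83). *Mcm5* and *Mcm6*, subunits of the replicative helicase whose promoter windows are printed above, were at 168 and 258 CPM in cycling and 33.4 and 61.6 CPM in non-cycling callus cells. In intact cells *Mcm5* was at 189 CPM against 0 UMIs and *Mcm6* at 349 against 17.5 CPM. *Mcm7*, another helicase subunit, was at 494 against 34.96 CPM intact and 293 against 84.7 CPM callus. *Cdc6*, which loads the helicase, was at 116 CPM against 0 UMIs and 46.7 against 5.13 CPM, and *Hells*, a chromatin remodeller gene, at 196 against 34.96 CPM and 231 against 20.5 CPM.

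Genes for growth also stood higher in cycling surrogate light chain cells. Of the Myc and growth list, 8 of 11 (intact) and 11 of 14 (callus) genes were at least 2-fold higher, with medians of 1.70 and 1.58, and 6 of 9 and 5 of 12 glycolysis genes were (1.90 and 0.97). Over all genes 25.8% (intact) and 14.4% (callus) were higher. *Npm1*, which encodes the nucleolar protein nucleophosmin, was at 1767 against 489 CPM intact and 3327 against 1096 CPM callus. Of all genes, listed or not, 45 were at least 2-fold higher and 14 lower in both libraries, out of 259 with 100 UMIs in each, and 0 went opposite ways. Histone genes were among the leading higher genes, with *Hist1h2ae* at 4909 against 122 CPM intact and 1084 against 28.2 CPM callus. Others were *Pclaf* (1447 CPM against 0 UMIs intact, 1033 against 15.4 CPM callus), a partner of the replication clamp, *Tuba1b* (1498 against 17.5 CPM, 1149 against 87.3 CPM), a tubulin gene, and *Stmn1* (2633 against 52.4 CPM, 2282 against 347 CPM), a microtubule regulator. Leading lower genes were the nuclear RNA *Malat1* (4967 against 37284 CPM, 5075 against 24340 CPM), the antiproliferative gene *Btg1* (451, or 275 without 1 cell, against 1905 CPM, 161 against 631 CPM) and *Ebf1*. The β-globin gene *Hbb-bs* was also named by the rule (313 against 1189 CPM, 696 against 11921 CPM), but 1 cell held 98.2% of the callus non-cycling UMIs and another 86.0% of the cycling ones, and the callus levels without them were 97.9 against 216 CPM. Without the 3 callus cells rich in haemoglobin or *S100a8* and *S100a9*, 1094 of 7969 callus genes were higher and 1662 lower in cycling surrogate light chain cells.

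Pro-B stage genes were mostly lower in the same comparison, and recombination and receptor signalling lists were mixed. Of pro-B stage genes, 8 of 11 (intact) and 13 of 18 (callus) were at least 2-fold lower in cycling surrogate light chain cells, with medians of −1.49 and −1.13. Over all genes 18.3% (intact) and 20.1% (callus) were lower. The V(D)J recombination and end joining list had medians of −2.73 (3 of 5 lower) and −1.18 (7 of 12 lower). Exceptions in that list were *Hmgb1* and *Hmgb2*, chromatin proteins that also serve dividing cells, and *Hmgb2* was at 5323 against 594 CPM intact and 4756 against 1119 CPM callus. Interleukin 7 receptor signalling genes had medians of −1.85 (3 of 4 lower) and −1.03 (7 of 11), and the pre-B and B cell receptor signalling list −0.96 (4 of 8) and −0.92 (7 of 15). CPM are shares of a cell's RNA, and cycling cells held more UMIs (medians 16887.5 against 3772 intact, 14747 against 4353.5 callus), so a lower share need not be fewer molecules per cell.

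Cycling cells without surrogate light chain held more κ light chain RNA than those with it, and less light chain RNA than small cells. *Igkc*, on chr6:70726435-70726966 (plus strand), had levels of 2305 CPM (1996 to 2648, 13 intact cells) and 2134 CPM (1904 to 2385, 20 callus cells), against 473 (365 to 602) and 169 CPM (151 to 188) over cycling surrogate light chain cells. Small cells had 7429 and 7604 CPM. Thinned to 2000 UMIs, 12 of 13 and 17 of 20 of them had an *Igkc* UMI (92.3% and 85%; 92.3% and 100% before thinning). The background share of *Igkc* in neutrophils, with median depths of 5688.5 and 6925.5 UMIs, was 1.41% and 2.04% thinned and 8.22% and 8.83% unthinned. κ variable segments were seen in 10 of 13 (76.9%) intact and 11 of 20 (55%) callus cells, against 4 of 8 (50%) and 16 of 105 (15.2%) cycling surrogate light chain cells, before thinning. In the intact library 6 of 15 non-cycling surrogate light chain cells (40%) also had one, so the contrast between the arms was smaller there. No background share is given for variable segments. Median depth also differed, at 6725 (intact) and 7885 UMIs (callus) without surrogate light chain and 16887.5 and 14747 UMIs in cycling cells with it. λ variable segments were seen in 0 of 13 and 1 of 20 cells, and in 36.9% and 19.8% of small cells. *Iglc2*, a λ constant gene, was at 127 and 130 CPM, all from 1 cell in each library, and at 1628 and 1654 CPM in small cells.

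*Cd74*, *Klf2* and *Ifi27l2a* were also higher in cycling cells without surrogate light chain than in those with it, partly through single cells. *Cd74*, the invariant chain of class II presentation, was at 695 CPM (530 to 894) intact and 506 CPM (397 to 636) callus in cycling cells without surrogate light chain, at 21.8 and 28.1 CPM in those with it, at 2067 and 2950 CPM in small and at 9332 and 10081 CPM in mature cells. One cell per library held 66.7% and 62.2% of the *Cd74* UMIs of cycling cells without surrogate light chain, and the levels without it were 244 and 198 CPM. *Klf2*, a factor of lymphocyte quiescence and migration, was at 2200 CPM (1899 to 2537) and 1601 CPM (1402 to 1820), against 676 and 395 CPM in cycling surrogate light chain cells. *Ifi27l2a*, an interferon-inducible gene (chr12:103442167-103443680, minus strand), was at 1865 and 1156 CPM against 50.9 and 99.7 CPM. Single cells held 37.3% (intact) and 46.7% (callus) of those *Ifi27l2a* UMIs, and the levels without them were 1270 and 653 CPM.

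Between the 2 cycling arms, 200 of 1805 genes (11.1%) were at least 2-fold higher and 159 (8.81%) lower in intact cells without surrogate light chain, and 894 of 7493 (11.9%) and 1023 (13.7%) in callus cells. Of 317 genes with 100 UMIs in both libraries, 14 were higher in both, 11 lower in both and 1 went opposite ways. Late pre-B and immature B genes had medians of 1.55 (6 of 7 higher) and 2.02 (13 of 17 higher), against 0.04 and 0.09 over all genes. *Dnajc7*, a chaperone cofactor gene, was at 1066 against 211 CPM and 807 against 165 CPM, and *Gm30211* at 1239 against 189 CPM (113 without 1 cell) and 1088 against 78.5 CPM. *Gm30211* (chr6:70719074-70740554, plus strand) covers *Igkc* on the same strand, so its reads cannot be told apart from κ transcripts. Myc and growth genes had medians of −0.77 (4 of 11 lower) and −1.37 (11 of 14 lower), and glycolysis genes −0.83 (3 of 9 lower) and −1.25 (8 of 12 lower). *Npm1* (602 against 1767 CPM, 773 against 3327 CPM), the ribosomal protein gene *Rps2* (1749 against 5556 CPM, 1909 against 5545 CPM) and the chaperone gene *Hsp90ab1* (892 against 2153 CPM, 910 against 2938 CPM) were among the lowest. Mitosis genes differed little by comparison, with medians of 0.47 and 0.59.

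Members differ from small pre-B and immature B cells by the rule itself, since small cells are those that met neither arm, so higher division genes were fixed by the choice of cells and the values are a description. Of counted genes, 623 of 5254 (11.9%) were at least 2-fold higher and 912 (17.4%) lower in the intact, and 1689 of 8764 (19.3%) and 1409 (16.1%) in the callus library. With all members the counts were 748 of 5686 (13.2%) and 853 (15%), and 1923 of 10047 (19.1%) and 1279 (12.7%). Over 1242 genes with 100 UMIs in both, 113 were higher and 153 lower in both, and 0 went opposite ways. Mitosis genes had medians of 4.49 (22 of 22 higher) and 4.90 (25 of 25), and late pre-B and immature B genes −2.26 (20 of 22 lower) and −3.90 (22 of 22). *Ms4a1*, which encodes the surface protein CD20, was at 28.5 against 829 CPM intact and 13.2 (8.71 without 1 cell) against 885 CPM callus, and *Ly6d*, a surface marker of the lineage, at 249 (155 without 1 cell) against 3691 CPM and 135 against 3464 CPM. *Rnase6*, a ribonuclease gene, was at 10.7 against 256 CPM and 3.303 against 219 CPM. The B-lineage transcription factor list had medians of −0.80 (7 of 19 lower) and −1.13 (13 of 20), and the adhesion and marrow homing list −0.23 (3 of 9) and −1.29 (6 of 10).

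When all members were taken, the genes with the highest ratios of callus over intact were those of the cells set aside above. Of 9630 genes, 1205 (12.5%) were at least 2-fold higher and 751 (7.8%) lower in the 254 callus than in the 39 intact members. The highest were *Elane* (2343 CPM in the callus, 2.96 CPM intact), *Camp* (1936 against 5.92 CPM), *Igha* (2177 CPM against 0 UMIs), *Mpo* (1514 CPM against 0 UMIs) and *Jchain* (1075 CPM against 0 UMIs), genes of neutrophil granules and secreted antibody. With the cells carrying another type's markers left out, 1006 of 8391 genes (12%) were higher and 494 (5.89%) lower, the share of higher genes being close to that with all members, and none of these 5 was among the 10 highest. Within surrogate light chain cells 961 of 8201 (11.7%) were higher and 499 (6.08%) lower, and within the cycling ones 1047 of 7438 (14.1%) and 470 (6.32%). Over all members without another type's markers, the 10 highest genes included *Srm*, of polyamine synthesis (93.7 against 7.12 CPM; chr4:148591503-148594993, plus strand). *Emp1*, a membrane protein gene (44.6 against 3.56 CPM), and *Psat1*, of serine synthesis (64.0 against 10.7 CPM), were also among them. The intact values of these 3 genes rested on 2, 1 and 3 UMIs, and their log2 ratios had intervals of 1.85 to 6.77, 1.14 to 8.96 and 1.01 to 4.88, so their sizes are poorly known. The α-globin gene *Hba-a2* was also named by the rule (504 against 71.2 CPM), but 78.03% of its callus UMIs lay in 1 cell and the level without it was 111 CPM.

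Some growth genes were higher in callus members. The Myc and growth list had a median log2 ratio of 0.79 (5 of 14 at least 2-fold higher, 0 lower) against 0.06 over all genes, and 0.78 (4 of 14) within surrogate light chain cells. Over all genes 12% of the first and 11.7% of the second comparison were at least 2-fold higher. *Npm1* was at 2814 against 1149 CPM (log2 ratio 1.29, interval 1.13 to 1.46) and *Ncl*, the gene of nucleolin, at 2004 against 854 CPM (1.23, 1.04 to 1.42). Within cycling surrogate light chain cells *Npm1* was at 3327 against 1767 CPM (0.91, 0.73 to 1.10), where 1 of 14 list genes was at least 2-fold higher, a smaller share than the 14.1% over all genes, and the list's median was 0.63. Stage and division lists were close to the median of all genes, with 0.10 for pro-B stage, −0.18 for DNA replication and −0.02 for mitosis genes. Late pre-B and immature B genes had a median of −1.18 (13 of 20 lower) over the 239 cells and −0.09 (5 of 17 lower) within surrogate light chain cells, and 13 of 36 intact but 20 of 203 callus cells were of the arm without surrogate light chain. Over all genes 5.89% were lower over the 239 cells and 6.08% within surrogate light chain cells. Within cycling surrogate light chain cells, pro-B stage genes had a median of 0.79 (7 of 17 higher, against 14.1% over all genes), with *Dntt* at 507 against 79.99 CPM and *Lef1* at 344 against 102 CPM.

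Histone RNA was lower in callus than in intact members. Of the 14 listed histone genes, 11 were at least 2-fold lower, with a median log2 ratio of −1.45, and 12 of 14 (median −1.54) within cycling surrogate light chain cells. Over all genes 5.89% and 6.32% were lower in these comparisons. *Hist1h2ap*, an H2A gene on chr13:21833026-21833507 (minus strand), was at 1816 CPM in callus and 10894 CPM in intact members, with 1948 CPM (1886 to 2012) against 11934 CPM (11363 to 12525) over cycling surrogate light chain cells. Small cells outside the rule differed the same way, with *Hist1h2ap* at 58.1 CPM in callus and 318 CPM in intact small cells and *Hist1h2ae*, another H2A gene, at 49.6 and 144 CPM. Mature cells went the other way for *Hist1h2ap*, at 352 CPM in the callus and 120.2 CPM in the intact library. *H2afz* and *H2afx*, variant histone genes on the same list, were at 3378 against 3853 CPM and 589 against 758 CPM, short of 2-fold. Replication-dependent histone RNAs end in a stem-loop and mostly lack the poly(A) tail that 3′ kits capture, and their genes are near-identical copies, so single histone genes are uncertain here.

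The difference was in most but not all cycling cells. Summed over the list, the 8 intact cycling surrogate light chain cells ranged from 4590 to 89377 CPM with a median of 47650, and the 105 callus cells from 682 to 39149 CPM with a median of 9493. The groups overlapped, since 3 of 8 intact cells lay under 10000 CPM and 49 of 105 callus cells at or above it. Cycling cells without surrogate light chain had medians of 47024 CPM (13 intact) and 22140 CPM (20 callus), and non-cycling cells 1631 and 1227 CPM. The DNA replication list did not show the same step, with medians of 4966 and 3952 CPM in cycling surrogate light chain cells. Non-cycling surrogate light chain cells had medians of 232 CPM (intact) and 405 CPM (callus) of the replication list. They ranged from 0 to 612 CPM intact and from 0 to 8562 CPM callus. The highest callus ones, at 3958, 5051 and 8562 CPM, lay above the callus cycling median of 3952 CPM. Cycling cells outside the rule with at least 10 UMIs of *Mpo*, *Elane*, *Prtn3* and *Ctsg* (13 intact, 328 callus) had medians of 13256 CPM (intact) and 6850 CPM (callus) of the histone list, so the direction was not particular to B-lineage cells.

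**Figure D5:**
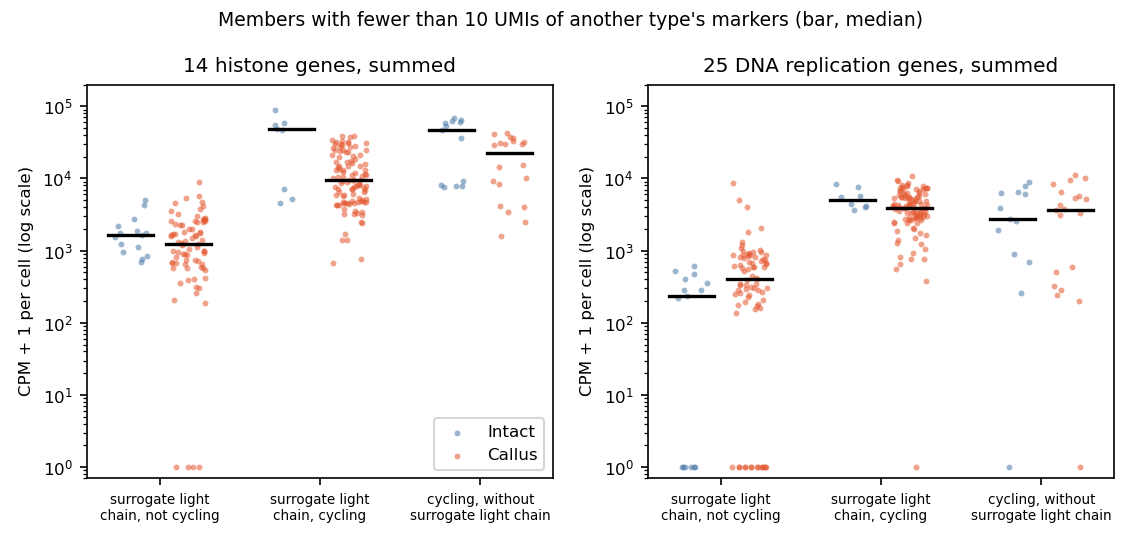
Summed CPM of the 14 histone genes (left) and of the 25 DNA replication genes (right) in each member without another type's markers, by arm and library, with a bar at the median. Intact cycling cells have histone medians of 47650 and 47024 CPM against 9493 and 22140 CPM in the callus, and the groups overlap.

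*AY036118* was also lower in callus B-lineage cells outside the rule, small and mature. This long non-coding RNA gene on chr17:39847113-39848035 (minus strand) was at 152 CPM in callus and 1352 CPM in intact members, and at 214 against 2017 CPM in small and 175 against 1769 CPM in mature B cells. *Btg1* and *Xist* were not among the leading genes, and were looked at after their values were seen. *Btg1* was at 261 against 968 CPM in members, 2664 against 5057 CPM in small and 1729 against 4117 CPM in mature cells. *Xist* was at 1719 CPM in callus and 913 CPM in intact small cells, and at 1446 and 705 CPM in cycling surrogate light chain cells. Such differences between 2 libraries cannot be told apart from differences in handling, depth or sequencing of 1 library against the other.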

How the data were processed

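The authors processed reads of both 3′ single-cell libraries with Cell Ranger (version 6.0.0, per the file headers; mm10, per the submitters' processing notes) and deposited UMI counts per gene and called cell, not normalized. The annotation they used is not given in the sources used here; positions are from GENCODE M21 and promoters from RefSeq.

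Of 5859 barcodes, the 4502 reaching 500 genes without exceeding 10% mitochondrial UMIs were analysed. Scrublet (scanpy 1.11.5) called 3 intact (0.249%) and 4 callus (0.121%) doublets, too few to be relied on, and none was removed. Rows sharing a symbol were summed. Raw UMIs were summed per library and group as CPM. CPM and ratios have exact Poisson and shares exact Clopper-Pearson 95% intervals, for counting error only, and 0 UMIs enter ratios as 3. With 1 library per group no test was run, and genes reaching 20 UMIs over both groups were counted by 2-fold ratios as a description. Shares were also read in cells thinned to 2000 UMIs, the multiple of 500 under percentile 10 of B-lineage depth, leaving out 1 intact and 6 callus members without another type's markers. Cells with at least 10 UMIs of another type's defining markers were set apart, a limit added after seeing the data beside the planned limit of 3 UMIs.

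Named genes are those of the lists, and the 10 highest and 10 lowest ratios among genes with at least 100 UMIs and 5 cells, in both libraries where given per library. Members, lists and comparisons were chosen with earlier results of these data known. The comparison code was tested on simulated data. Tools were python 3.11.15, numpy 2.4.6, scipy 1.17.1, pandas 2.3.3 and matplotlib 3.10.9.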

Additional observations from a re-analysis of the deposited data

Results flagged for a closer look

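In the callus library, 8 barcodes outside the cell filter met the rest of the rule, against 1 in the intact library, and were not used above. Over all members, late pre-B and immature B genes had a median log2 ratio of cycling over non-cycling cells of 0.30 in the intact and −0.94 in the callus library. Immediate-early and dissociation response genes had medians of 0.35 and −0.80 in the same comparison. Both lists were picked out because their medians had opposite signs in the 2 libraries, and these differences were not tested. With cells carrying another type's markers left out (3 intact, 51 callus), the medians were −0.32 and −0.87 for late pre-B and immature B genes and −0.59 and −1.11 for immediate-early genes, so the signs were then alike. Within surrogate light chain cells they were −1.17 (5 genes counted) and −1.46 (17 genes), and −1.58 (6 genes) and −1.17 (14 genes).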

How the results depend on the processing

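No paired analysis was possible because each group has 1 library, and no replicate could be left out. Callus members numbered 161 (5.33% of analysed and 30.3% of B-lineage cells) when the rule was read after thinning, and 158 (4.94% and 27.2%) without cells having 3 UMIs of another type's markers. With only the members having 10 such UMIs taken out of both counts, they were 6.26% and 32.4% (34.4% above also leaves such cells out of the other B-lineage cells), and 6.74% of analysed cells with at least 5 UMIs of *Cd79a* and *Cd79b*. Read after thinning, cycling cells were 5.56% of intact and 40.8% of callus surrogate light chain cells. For callus over intact members, 751 genes were lower, and 388 with at least 50 UMIs per gene, 494 without cells carrying another type's markers, 499 also without the 3 callus cells rich in haemoglobin or *S100a8* and *S100a9*, and 499 in surrogate light chain cells. The limit of 50 UMIs also lowered counts for members over small cells, to 328 higher and 377 lower intact and 791 lower callus, and for cycling over non-cycling members, to 273 higher and 120 lower intact and 1224 lower callus. The last count of lower genes was 292 intact in surrogate light chain cells only. The limit of 50 UMIs counts fewer genes by construction. For the other settings the cause was not tested. The callus median of interferon response genes, cycling over non-cycling members, changed sign to 0.72 at 50 UMIs, and the cause was not tested. The other 142 values of counts and shares stayed within 1.5 times or their interval. Of the list medians, 533 moved by less than the limit and 92 by more, among them changes of sign in medians short of 2-fold. Intact arms held 8 to 15 cells, and 3 UMIs there are 21.8 to 52.4 CPM, which is the limit set by depth.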
